A study of Mus musculus with 12 samples.

Results

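The genes of the vesicle release machinery were examined in bulk RNA of frontal cortex, taken from male mice of the C57BL/6 strain. Of 12 libraries, 6 came from Adar2-/- animals and 6 from Adar2+/+ litter mates, and all 12 carried the Gria2R/R genotype. The list of 40 genes runs from priming factors to SNARE, active zone, calcium sensor and vesicle proteins, and was drawn up with the editing site of Cadps and other results of these data known. All 40 were found among the 15191 genes of the authors' deposited gene table. They held 683 of the 156805 listed exon bins and 1 of the 143 listed RNA editing sites. Adarb1 encodes the enzyme ADAR2, which turns adenosines of double-stranded RNA into inosines that the ribosome reads as guanosines. With the Gria2R allele, shared by knockout and control, arginine stands at the Q/R position of this AMPA receptor subunit whether or not its RNA is edited. The sources used here give neither age, litter nor the part of Adarb1 that was deleted. The tables hold summaries of each comparison and no value per mouse, so an SD cannot be stated.

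Neurotransmitter is released when a vesicle docks at the active zone, is primed, and fuses with the plasma membrane after calcium entry. Fusion is driven by the SNARE proteins syntaxin-1, SNAP-25 and synaptobrevin, which zipper into a bundle that NSF and its SNAP adaptors later take apart. Munc13 proteins (Unc13a, Unc13b, Unc13c) prime synaptic vesicles, whereas the CAPS proteins (Cadps, Cadps2) are best known for priming dense-core vesicles, which carry neuropeptides and neurotrophins. Some synaptotagmins sense calcium, complexins bind the assembled SNARE bundle, and RIM, ELKS, Bassoon and Piccolo build the scaffold of the active zone.

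The gene table names its conditions A and B and not by genotype, so differences of mRNA level are given as A over B. Adarb1 was 4.62-fold lower in A in the authors' deposited table (adjusted p = 3.06e-126), and this value was not taken to tell which condition is the knockout. The exon table and the editing table name the knockout and the control themselves. In bulk cortex fewer cells of a type and less RNA per cell cannot be told apart. Slc17a7, a marker of excitatory cortical neurons, had a mean normalized count of 17440 in the authors' deposited table, against 34.7 for Ttr, a marker of choroid plexus.

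Cadps was placed in the list as an edited gene, and no other member has a listed editing site. The site lies at position 13244096 of chromosome 14 on the mouse build mm9 and is listed as E/G, a change of glutamate to glycine in the coding sequence. The authors' deposited table gives 11.1% of reads edited at this site for the knockout and 27.4% for the control, a difference of -16.2 percentage points (adjusted p = 3.53e-14). Editing at Cadps therefore fell to 40.7% of its control level, and editing was still listed above 0 in the knockout. By the authors' deposited table, 56 of all 143 sites fell (39.2%), as did 19 of the 22 whose class is an amino acid change (86.4%). The depth at each site and the test behind the adjusted p are unknown, so no confidence interval can be set on either percentage, and whether that p takes up the spread between mice cannot be told.

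The Cadps site kept more of its control level than most amino acid sites. Among the 19 that fell, the median share of the control level kept in the knockout was 15.3%, with a range from 0 to 86.1%. Cadps kept the second highest share, below the R/G site of the AMPA receptor gene Gria3 (86.1%) and next to the Q/R and I/V sites of the kainate receptor gene Grik2 (39.5% and 39.3%). Its difference in percentage points was likewise the second smallest of the 19, between -13.1 for Gria3 and -17.4 for Cog3, a subunit of a Golgi tethering complex. The Sfi1 sites, which did not pass and so stand outside this ranking, kept 85.8%, 67.3% and 84.3%. Their differences were -7.26, -14.3 and -5.78 points, smaller than that of Cadps. The control level of Cadps was the fifth lowest of the 19.

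Sites with a like control level ended at different levels in the knockout. Of the 19 sites, 7 stood under 35% in the control, and apart from Cadps 5 of the other 6 were under 2% in the knockout. Unc80 had 0.709% in the knockout and 27.0% in the control, and Nova1, which encodes a neuronal splicing factor, had 1.099% in the knockout and 25% in the control, by the authors' deposited table. Cog3 was the nearest to Cadps, with 9.13% in the knockout and 26.5% in the control in the authors' deposited table. These differences between sites were not tested, since the table gives no coverage and no value per mouse. The other listed E/G site, in Sfi1, had 43.9% in the knockout and 51.2% in the control in the authors' deposited table and did not pass (adjusted p = 0.406).

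**Figure D1:**
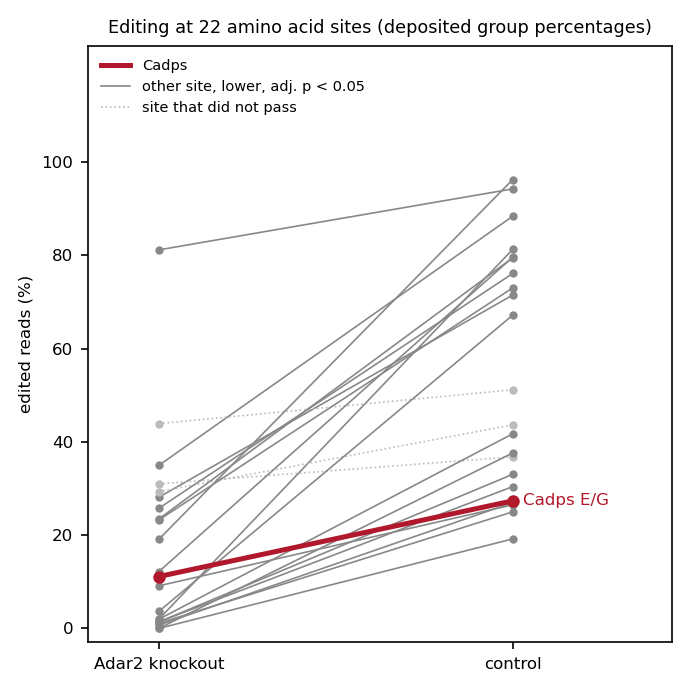
Percent of edited reads at the 22 amino acid sites in the Adar2 knockout (left) and the control (right), as deposited group percentages, with each line a site. The Cadps line runs between 11.1% in the knockout and 27.4% in the control, above the group of sites that end near 0 in the knockout, and the 3 dotted lines are sites that did not pass.

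The mRNA level of Cadps differed little between the conditions. Cadps had a mean normalized count of 11295 in the authors' deposited table (log2 difference 0.025, p = 0.758, adjusted p = 1). Its relative Cadps2 had a mean normalized count of 3684 in the authors' deposited table (log2 difference 0.015, p = 0.960). Per kilobase of the longest coding transcript, Cadps stood at 2068 and Cadps2 at 741, so Cadps held 73.6% of the summed CAPS level. These lengths come from GENCODE M21, whose build is not that of the files, and the level of a gene depends on the transcript taken.

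The Munc13 genes had similarly small differences. Unc13a, the main Munc13 of excitatory synapses, had a mean normalized count of 9551 in the authors' deposited table (log2 difference -0.036, p = 0.530). Unc13b had a mean normalized count of 3063 in the authors' deposited table (log2 difference 0.019, p = 0.638). Unc13c, best known from cerebellar granule cells, had a mean normalized count of 1358 in the authors' deposited table (log2 difference 0.0029, p = 0.849). The level per kilobase was 931 for Unc13a, 208 for Unc13b and 154 for Unc13c. The sign of Unc13c turned when the median of all genes, 0.0063, was subtracted.

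None of the 40 genes passed in the gene table, where 3 of 15191 genes did (0.0197%). The adjusted p was 1 for all 40 in the authors' deposited table. No member had an unadjusted p under 0.05 either, where 283 of all genes (1.86%) had, and the smallest was 0.141. The log2 differences of the 40 ran from -0.078 for Doc2b to 0.47 for Bsn, with a median of 0.022, against 0.0063 over all genes. A difference of less than 1.1-fold was found for 32 members (80.0%) and for 78.1% of all genes. The 40 genes together held 1.61% of the summed mean count of all listed genes.

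**Figure D2:**
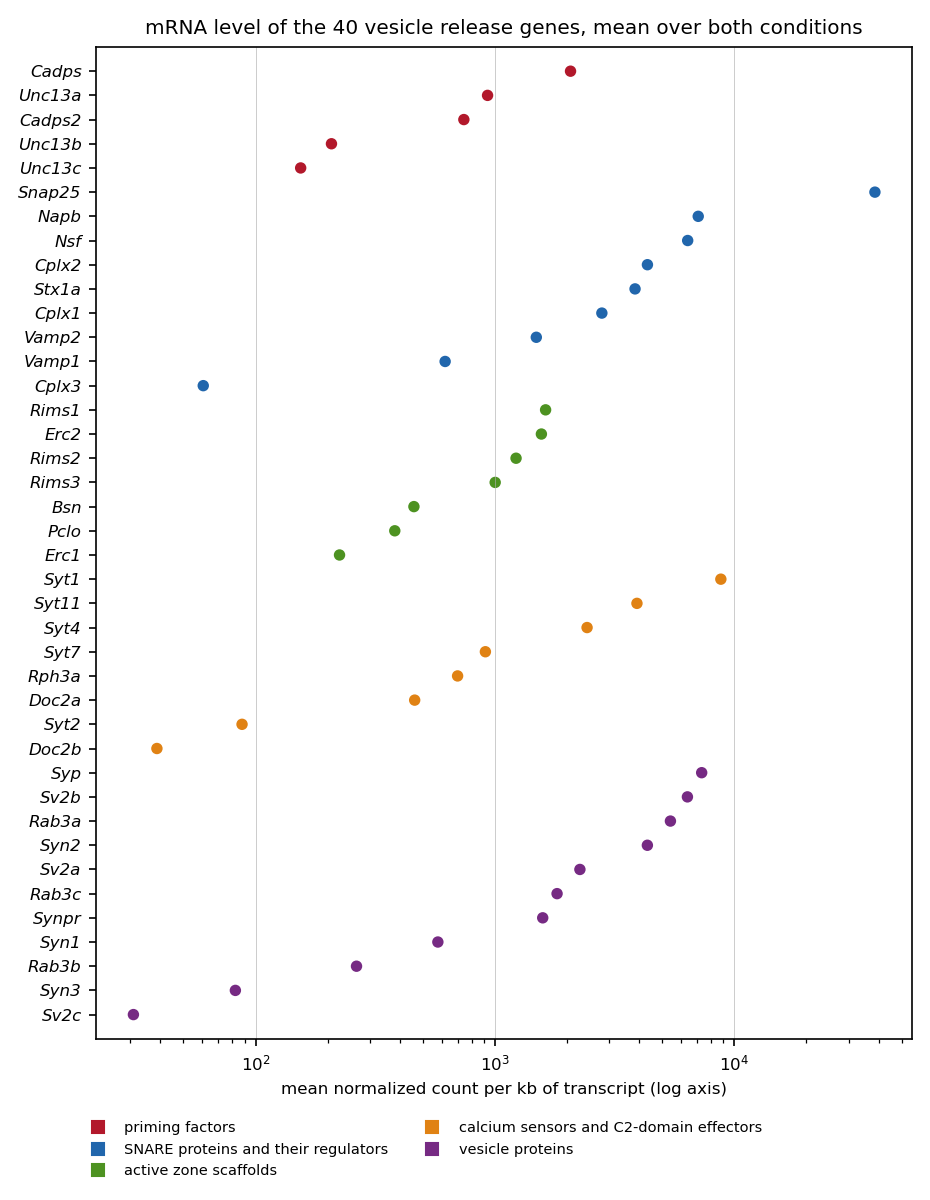
Mean normalized count per kilobase of transcript of each of the 40 genes, on a log axis, as a mean over both conditions, grouped by role and ordered by level within each role. Snap25 stands highest at 38627 and Sv2c lowest at 30.9.

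Among the SNARE proteins and their regulators, 6 of 9 were higher in A and 3 lower, with a median log2 difference of 0.035, and none passed. Snap25, the plasma membrane SNARE, was the most abundant gene of the list per kilobase (38627). It had a mean normalized count of 81736 in the authors' deposited table (log2 difference -0.010, p = 0.929). Vamp2, the synaptobrevin of most forebrain synapses, had a mean normalized count of 3282 in the authors' deposited table and was 1.21-fold higher in A (log2 difference 0.28, p = 0.249). The standard error that this p implies was 0.24, so the difference is little more than its own error. Implied standard errors are the log2 difference over the normal quantile of the deposited p, and were computed where p was under 0.5.

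The remaining members of this role differed by less than Vamp2. Cplx1, a complexin, had a mean normalized count of 6119 in the authors' deposited table and was 1.11-fold higher in A (log2 difference 0.15, implied SE 0.15, p = 0.333). Cplx3, the complexin of retinal ribbon synapses and of some deep cortical neurons, had a mean normalized count of 173 in the authors' deposited table (log2 difference 0.13, implied SE 0.17, p = 0.463). Napb, the beta SNAP adaptor of NSF, had a mean normalized count of 31158 in the authors' deposited table (log2 difference 0.026, p = 0.585). Nsf, Stx1a, Cplx2 and Vamp1 lay between -0.046 and 0.072 in log2 difference in the authors' deposited table. Per kilobase, Cplx2 led the complexins (4333), with Cplx1 at 2795 and Cplx3 at 60.5, and Vamp2 (1488) stood 2.403-fold above Vamp1.

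Among the 7 active zone scaffolds, 3 were higher in A and 4 lower, with a median of -0.017, and the group held the member with the largest difference. Bsn, which encodes the scaffold Bassoon, had a mean normalized count of 7311 in the authors' deposited table and was 1.39-fold higher in A (log2 difference 0.47, implied SE 0.32, p = 0.146). Pclo, which encodes the related Piccolo, had a mean normalized count of 7665 in the authors' deposited table and was 1.24-fold higher in A (log2 difference 0.31, implied SE 0.27, p = 0.240). Both were higher in condition A, and the approximate 95% interval of each difference spans 0, from -0.16 to 1.11 for Bsn and from -0.21 to 0.83 for Pclo. These intervals rest on the deposited p-values. Over all genes only 1.86% of those were under 0.05, so the intervals may be too wide. Cdh13, which did pass, had the same log2 difference as Bsn, 0.47, with an implied SE of 0.10 (adjusted p = 0.0156 in the authors' deposited table).

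The RIM and ELKS genes lay on the other side or near 0. Rims1, a RIM that tethers vesicles and calcium channels, had a mean normalized count of 10490 in the authors' deposited table (log2 difference -0.077, implied SE 0.073, p = 0.287). Rims3, a short RIM, had a mean normalized count of 6519 in the authors' deposited table (log2 difference -0.072, implied SE 0.075, p = 0.338). Rims2 was at -0.021, and the ELKS genes Erc1 and Erc2 were at 0.047 and -0.017 in the authors' deposited table. Per kilobase, Erc2 (1563) stood 6.97-fold above Erc1 (224). Exons of other genes, on either strand, overlap 19.5% of Erc1 in the annotation. The gene with the largest overlap lies on the opposite strand. The labels name a stranded kit, but the sources do not state strand-aware counting. The count of Erc1 may therefore hold reads of those genes, in an unknown amount.

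Among the 8 calcium sensors and C2-domain effectors, 6 were higher in A and 2 lower, with a median of 0.023, and none passed. Syt2, the fast calcium sensor of hindbrain synapses and of parvalbumin interneurons, had a mean normalized count of 604 in the authors' deposited table and was 1.36-fold higher in A (log2 difference 0.44, implied SE 0.35, p = 0.211). Syt1, the main fast sensor of the forebrain, had a mean normalized count of 42312 in the authors' deposited table (log2 difference 0.0051, p = 0.994), a sign that also turned on subtracting the median of all genes. Syt1 stood 99.9-fold above Syt2 per kilobase.

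Of the other members of this role, Syt4 encodes a synaptotagmin of dense-core and postsynaptic vesicles. It had a mean normalized count of 9437 in the authors' deposited table (log2 difference 0.072, implied SE 0.086, p = 0.401). Rph3a, which encodes the Rab3 effector rabphilin, had a mean normalized count of 2897 in the authors' deposited table (log2 difference 0.12, implied SE 0.15, p = 0.414). Doc2b, a high-affinity sensor of spontaneous release, had a mean normalized count of 169 in the authors' deposited table (log2 difference -0.078, p = 0.646). Syt7, Syt11 and Doc2a lay between -0.0053 and 0.036. Exons of other genes, on either strand, overlap 14.5% of Syt4 and 37.5% of Doc2a in the annotation. In each, the gene with the largest overlap lies on the opposite strand, so the values of Syt4 and Doc2a carry the same uncertainty.

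Among the 11 vesicle proteins, 8 were higher in A and 3 lower, with a median of 0.065, and none passed. Syn1, a synapsin that tethers vesicles to each other and to actin, had the smallest p of the list, with a mean normalized count of 1883 in the authors' deposited table, and was 1.34-fold higher in A (log2 difference 0.43, implied SE 0.29, p = 0.141). Syn3, the synapsin of early and immature neurons, had a mean normalized count of 330 in the authors' deposited table and was 1.21-fold higher in A (log2 difference 0.28, implied SE 0.25, p = 0.267). Syn2, by far the most abundant synapsin here (4331 per kilobase, 7.50-fold above Syn1), had a mean normalized count of 16691 in the authors' deposited table (log2 difference 0.065, implied SE 0.078, p = 0.406). The 3 synapsins were thus all higher in A, by unequal amounts, and none beyond its error at the 95% level.

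None of the SV2 and Rab3 genes passed, and differences between their members were not tested. Sv2c, the SV2 of basal ganglia, had a mean normalized count of 281 in the authors' deposited table and was 1.193-fold higher in A (log2 difference 0.25, implied SE 0.25, p = 0.310), while Sv2b, at 6365 per kilobase 206-fold above Sv2c, was at -0.0044. In the authors' deposited table, Sv2a, the target of levetiracetam, was at 0.081. The Rab3 GTPases, which bind RIM and rabphilin, were at -0.059 for Rab3a, 0.0067 for Rab3b and -0.041 for Rab3c in the authors' deposited table. The vesicle tetraspan proteins Syp and Synpr were at 0.0085 and 0.11. Exons of other genes, on either strand, overlap 33.8% of Syp in the annotation, and the gene with the largest overlap lies on the opposite strand.

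**Figure D3:**
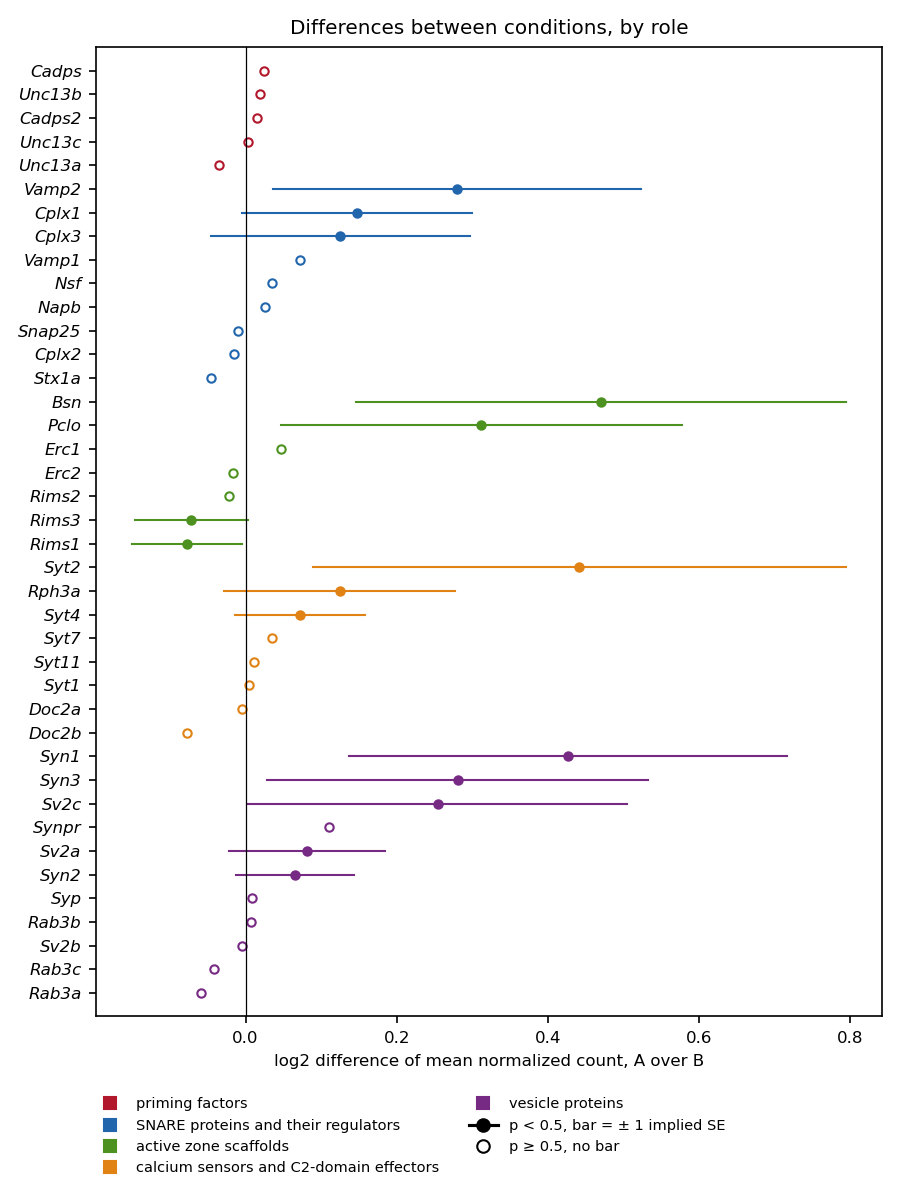
Log2 difference of mean normalized count, condition A over condition B, for the 40 genes by role. Filled points with bars have p under 0.5 and show 1 implied standard error to each side, and open points have p of 0.5 or more and no bar. The 6 largest values, from 0.28 for Vamp2 to 0.47 for Bsn, carry bars of 0.24 to 0.35.

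A difference of more than 1.2-fold was found for 6 of 40 members (15%), all higher in A, namely Bsn, Syt2, Syn1, Pclo, Syn3 and Vamp2. Over all genes, 709 (4.67%) were more than 1.2-fold higher in A and 567 (3.73%) lower. The p-values of the 6 lay between 0.141 and 0.267. Their implied standard errors, from 0.24 to 0.35, were large beside the median of 0.12 over the 5202 genes with p under 0.5. This follows in part from how they were picked, since a large difference without a small p gives a large implied error. The 9 other members with p under 0.5 had implied standard errors from 0.073 to 0.25. Of the 40, 27 were higher in A (67.5%), against 52.9% of all genes, and 25 after the median of all genes was subtracted.

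Bsn and Pclo stood among few abundant genes with such a difference, a cut at 5000 counts chosen after their values were seen. Of the 1233 genes with a mean count of at least 5000, 7 (0.568%) were more than 1.2-fold higher in A, and these 2 were among them. The other 23 members at that level lay between -0.077 and 0.15 in log2 difference. Over the 40 members the rank correlation of mean count with log2 difference was -0.34, where over all genes it was -0.00014. This is a description across genes of the same 12 libraries, and genes are not independent replicates.

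**Figure D4:**
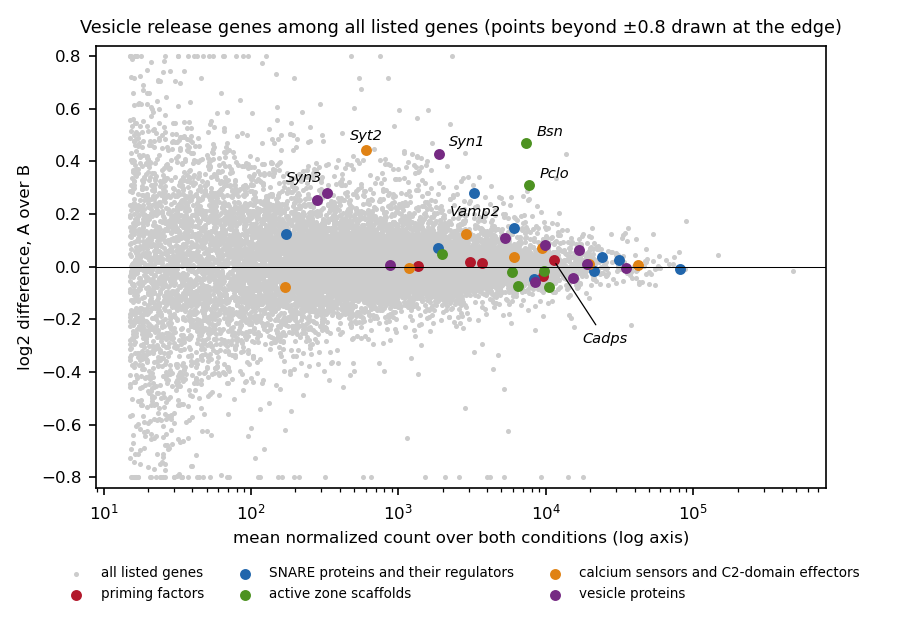
Log2 difference, condition A over condition B, against mean normalized count on a log axis for all listed genes (grey) and the 40 members (coloured by role), with values beyond 0.8 to either side drawn at the edge. Bsn and Pclo lie above the grey band at counts above 5000, while Cadps lies within it at 0.025.

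Base composition and length of the transcripts were set beside the differences. Among the 6 genes beyond 1.2-fold, the GC content of the longest coding transcript ran from 45.4% for Pclo to 59.8% for Bsn, where the 40 members spanned 40.6% to 60.4%. The rank correlation of GC content with the log2 difference was 0.032 over the 40 members and 0.12 over 12491 genes with a transcript. For transcript length it was 0.0092 over the members.

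Markers of cell types were set beside these values, and none of those named here passed. All 6 interneuron markers were higher in A, with log2 differences from 0.098 for Vip to 0.34 for Gad2 in the authors' deposited table. Pvalb, which marks the interneurons known to use Syt2, was at 0.27 (implied SE 0.21, p = 0.189) in the authors' deposited table. Of the 5 excitatory neuron markers 4 were higher in A, and the 5 log2 differences ran from -0.22 to 0.19. Of the 5 measured striatal neuron markers, from tissue where Sv2c is abundant, 4 were higher in A, and the 5 log2 differences ran from -0.03 to 0.45. Ppp1r1b, one of these, was at 0.30 in the authors' deposited table (unadjusted p = 0.00242, adjusted p = 1). Markers of other cells were also mostly higher in A, namely 5 of 5 for microglia (median 0.12), 4 of 5 for astrocytes (median 0.11), 2 of 3 for oligodendrocyte precursors (median 0.14) and 2 of 2 for choroid plexus (median 0.13). Fewer were higher among the general neuron markers (1 of 3), those of oligodendrocytes (2 of 5) and those of endothelium (1 of 3), whose medians lay between -0.028 and -0.0085. Of the 2 measured skeletal muscle markers, Myl1 was at 1.33 and Acta1 at -0.41 in the authors' deposited table. Not all chosen markers were measured. For general neurons 3 of 5 were, for striatal neurons 5 of 6, for choroid plexus 2 of 3 and for skeletal muscle 2 of 4. The part of these cell types in the differences of the members was not tested.

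The rest of the release pathway was read from a list of 109 genes, of which 107 were measured. None passed, and 4 (3.74%) had an unadjusted p under 0.05, against 1.86% of all genes in either direction. All 4 were lower in A, as were 155 of all genes (1.02%) at that p. Stx4a, a syntaxin of non-synaptic exocytosis, had a mean normalized count of 513 in the authors' deposited table and was 1.14-fold lower in A (log2 difference -0.19, implied SE 0.088, p = 0.0330). Stxbp5l, a tomosyn that binds syntaxin and holds back SNARE assembly, had a mean normalized count of 5152 in the authors' deposited table and was 1.13-fold lower in A (log2 difference -0.18, implied SE 0.086, p = 0.0342). Pcsk1, a convertase that cleaves prohormones in dense-core vesicles, had a mean normalized count of 1943 in the authors' deposited table and was 1.15-fold lower in A (log2 difference -0.20, implied SE 0.099, p = 0.0433). Sytl1, a synaptotagmin-like Rab27 effector, had a mean normalized count of 24.9 in the authors' deposited table and was 1.67-fold lower in A (log2 difference -0.74, implied SE 0.37, p = 0.0467).

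The parts of that list had medians near 0. The 16 genes of dense-core vesicle cargo and processing, the vesicles that Cadps primes, had a median of -0.0056, with 6 higher and 10 lower in A. The 27 further SNARE and SM genes had a median of 0.0090, the 20 priming and active zone partners 0.039, the 24 synaptotagmin and Rab cycle genes 0.011, and the 20 genes of vesicle membrane and endocytic recycling 0.043. In the last of these 16 genes were higher in A and 4 lower. The median over all 107 was 0.022, the same as that of the 40 members to 2 digits.

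Exon usage was then compared for the same genes. Of their 683 bins, 629 had a p-value, in 39 genes. All 54 bins of Unc13b were listed without a p or a fold change, as were all bins of 867 of the 13536 entries of the exon table (6.41%), for no reason stated in the sources. None of the 629 bins passed in the authors' deposited table, where 11 of 149137 bins did (0.00738%). An unadjusted p under 0.05 was found for 8 (1.27%), against 1.67% of all bins. A usage difference of more than 1.2-fold was found for 14 (2.23%), against 5.20% of all bins. The members' bins were better covered, with a median mean count of 243 against 91.7 over all bins.

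Cadps had 33 listed bins, all with a p-value, and none under 0.05. Usage was higher in the knockout for 16 and lower for 17 of them, with log2 values of knockout over control between -0.23 and 0.17 and a smallest p of 0.0983. The exon table gives no coordinates, so the bin that holds the edited position cannot be named. Whether that bin is among those listed is unknown. Cadps2 and Unc13a were alike, with 38 and 47 bins, log2 values within -0.21 and 0.18 and none under a p of 0.05. Unc13c had 30 bins between -0.25 and 0.20.

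The 8 bins under 0.05 lay in 5 genes. Active zone scaffolds, with 167 of the 629 tested bins, held 5 of the 8 (2.99% of their bins), a share whose difference from other bins was not tested. Bin E013 of Syn3 was lower in the knockout (log2 -0.41, p = 0.0163) and bin E019 of the same gene higher (log2 0.30, p = 0.0211) by the authors' deposited table, with mean counts of 56.5 and 76.8. Bins E001 and E002 of Erc2, at an end of the gene, were both lower in knockout cortex by the authors' deposited table, with log2 values of -0.35 (p = 0.04998) and -0.16 (p = 0.0200). Bin E024 of Erc1 was lower (log2 -0.21, p = 0.0275) in the authors' deposited table. In Pclo, bin E002 was higher (log2 0.25, p = 0.0287) and bin E015 lower (log2 -0.21, p = 0.0473) in the authors' deposited table. Bin E006 of Vamp1 was lower (log2 -0.47, p = 0.0499), and its bin E002 stood at 0.23 with p = 0.0610, in the authors' deposited table. The next bin by p, E012 of Bsn, was at -0.15 in the authors' deposited table (unadjusted p = 0.0558). The adjusted p was 1 for each of these bins.

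Usage was also read in the genes with the larger level differences. Of the 14 bins of Bsn 8 were higher and 6 lower in the knockout, between -0.31 and 0.18. Of the 15 bins of Syn1 8 were higher and 7 lower, between -0.29 and 0.15, and neither gene had a bin under 0.05. Syt2 had 8 bins between -0.20 and 0.27 with a smallest p of 0.189. The lowest log2 value of any member bin was -0.49, in Nsf, whose smallest bin p was 0.155, and it was singled out after its value was seen. By role, the median log2 usage was 0.0046 for priming factors, 0.0048 for SNARE proteins and regulators, -0.00012 for active zone scaffolds, 0.00090 for calcium sensors and -0.0057 for vesicle proteins. A bin's value is its usage relative to the rest of its gene, whatever the level of that gene.

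**Figure D5:**
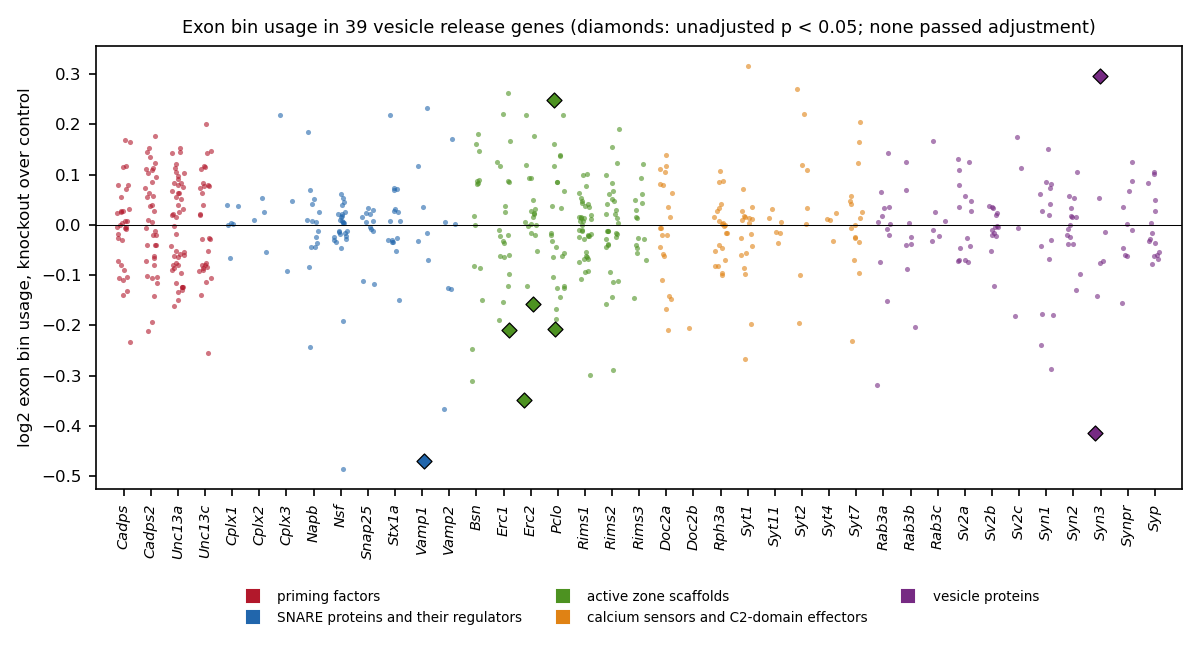
Log2 usage of each of 629 exon bins, knockout over control, in the 39 genes with p-values, coloured by role, with diamonds for the 8 bins with an unadjusted p under 0.05. Bins scatter to both sides of 0 in every role, and the diamonds run from -0.47 in Vamp1 to 0.30 in Syn3.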

How the data were processed

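Trizol was used for extraction and a stranded total RNA kit with ribosomal RNA depletion for the libraries, per the labels. Tools named in the submitters' processing notes are SAMtools 01.19.0, Bowtie2 2.02.0, TopHat2 2.0.6, DESeq and HTSeq, beside the build mm9, and no role is stated. The gene table holds the authors' mean normalized count over both conditions, a signal, per the file headers, with the deposited ratio of B over A, its log2 value, p-values and adjusted p-values. The exon table holds the authors' mean count, log2 ratio, p-values and a dispersion score per bin. The editing table holds the authors' percent of edited reads per group, with the position as another deposited value. The sources used here name no site caller, test or coverage, and depth per library is unknown. The other 2 columns of the gene table, means of condition A and of condition B, were left unused because nothing in their names ties them to a genotype.

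The 40 genes and all lists were chosen with earlier results of these data known. Members were all named, with full values for the priming factors and the 4 smallest p-values of each other role, the 10 bins and the 4 genes of the wider list with the smallest p. Snap25, Syt1 and other members were given values besides. Calls used the deposited adjusted p under 0.05. Log2 differences were turned to A over B, and for bins to knockout over control. Implied standard errors divide the log2 difference by the normal quantile of the p, and are approximate. Transcript length, GC content and exon overlap came from GENCODE M21. Overlap used the coordinates of that annotation, which were not matched to positions in the deposited values. Exon bins were paired with symbols by Ensembl ID for all 40 genes. Functions were tested on simulated data. Python 3.11.15, pandas 2.3.3 and scipy 1.17.1 were used. Alternatives covered thresholds, adjustments, count minimums, centring and transcript length. Nothing shows whether the 6 samples of each genotype are more than separate cortices, so p-values of genes and bins measure at most the spread between these samples. What the p-values of editing sites measure is not stated.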

Additional observations from a re-analysis of the deposited data

How the results depend on the processing

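Of the 40 members 0 passed in the deposited gene table, and the count was also 0 at an adjusted p under 0.1. It was 0 as well when adjusted over the listed genes alone and by Bonferroni. The count stayed 0 with a mean count of at least 100 and, chosen after the data were seen, with the priming factors left out. That minimum removed no member, the lowest mean count being 169, and leaving genes out could not raise a count of 0. For the 107 genes of the wider pathway the count was 0 in the first 4 of these settings. No exon bin of the members passed at an adjusted p under 0.1, adjusted over the listed bins alone or by Bonferroni. None passed with a mean count of at least 50 or without the Adarb1 bins. Adarb1 is not a member, so leaving out its bins removed no bin of the members. No member passed by a Simes p per gene. The fall of the Cadps site passed with its adjusted p multiplied by the 143 sites and with a minimum difference of 10 points. The median log2 difference of the members, 0.022, was 0.016 after centring on all genes and 0.067 as a mean weighted by log count. The minimum of 100 counts left the median unchanged because it removed no member. Of 33 pairs within 12 families, 32 kept their order of level per kilobase with the union of exons as length (chosen after the data were seen), the exception being Rims2 and Rims3. No paired analysis was possible because every table gives group summaries alone. Leaving out single libraries was not run for the same reason, and the lack of single-library values limits every comparison here.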
